A study of Drosophila melanogaster with 2 samples.

Results

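Dense clusters of Medea summits in Drosophila melanogaster embryos are described here: stretches of the genome in which at least 4 summits of Med-eGFP binding follow one another at distances of at most 5000 bp. The members were chosen by the positions of the summits in the authors' reproducible peak list. On each chromosome arm, neighbouring summits were joined while the distance to the next was at most 5000 bp, and joined runs of 4 or more summits were kept. This gave 238 clusters with 1162 peaks, which were 19.8% of the 5867 reproducible peaks. The other 4705 peaks stood alone (2360), in runs of 2 (1472) or in runs of 3 (873). Since the clusters were selected on summit positions in that list, their number, spacing and signal there are descriptions and are not tested.

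Chromatin immunoprecipitation followed by sequencing mapped where Medea sat on DNA in whole embryos from a transgenic line that carries eGFP at the C terminus of Med. The embryos were 0 to 24 h old and of both sexes, and an anti-GFP antibody was used. The design holds no contrast: 1 group was sampled as biological replicates 2 and 3. Each replicate had a relaxed list of 30000 peaks, and the reproducible list came from both replicates together. Whole embryos hold many cell types and stages, so weak binding in many cells and strong binding in few cells cannot be told apart, and the summits of 1 cluster need not be bound in the same cells. All positions are in build dm6 (Release 6), and signal means the strength the authors gave each peak. The sources used here do not state its scale.

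Medea is the common-partner Smad of the fly. After BMP or activin receptors phosphorylate Mad or Smox, these bind Medea, enter the nucleus and attach to DNA through short Smad boxes (GTCT, or AGAC on the opposite strand), usually together with other factors. In the embryo the BMP ligand Dpp patterns the dorsal side, and Schnurri with Mad and Medea silences brk, the gene of a repressor of Dpp targets.

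The following sequences show 50 bp to either side of a summit on the plus strand of the Release 6 assembly, with every Smad box in capitals. They were chosen to show how unlike the summit sequences of prominent clusters were. The strongest cluster summit (ush, chr2L:481043-481143) had 1 box, the strongest summit upstream of chinmo (chr2L:1638746-1638846) and the strongest of Raf (chrX:2297680-2297780) had 0, the strongest of the bantam region (chr3L:644249-644349) had 2, and the strongest of brk (chrX:7307642-7307742) had 1. The Pdk1 window (chr3L:133554-133654) had 4 and was the only cluster window with the palindrome GTCTAGAC, at a summit that overlapped no relaxed peak of replicate 2.
ush: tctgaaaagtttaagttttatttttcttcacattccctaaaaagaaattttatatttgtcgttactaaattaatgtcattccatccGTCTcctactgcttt
upstream of chinmo: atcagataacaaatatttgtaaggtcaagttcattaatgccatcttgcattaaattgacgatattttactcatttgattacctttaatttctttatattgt
Raf: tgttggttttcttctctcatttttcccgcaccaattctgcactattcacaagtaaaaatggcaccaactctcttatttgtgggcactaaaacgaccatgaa
bantam region: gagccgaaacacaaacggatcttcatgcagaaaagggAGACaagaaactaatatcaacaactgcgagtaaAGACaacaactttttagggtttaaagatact
brk: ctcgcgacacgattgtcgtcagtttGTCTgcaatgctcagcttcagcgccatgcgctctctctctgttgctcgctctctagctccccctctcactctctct
Pdk1: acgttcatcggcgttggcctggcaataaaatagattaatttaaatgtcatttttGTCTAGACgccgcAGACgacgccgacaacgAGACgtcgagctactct

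A promoter-type summit sequence is shown for contrast, with the DRE (TATCGATA, the site of the factor DREF at many housekeeping promoters) in capitals. It is the summit at RpS25, on chr3R:11216307-11216407, from the cluster that runs from SdhC to CG17726.
RpS25: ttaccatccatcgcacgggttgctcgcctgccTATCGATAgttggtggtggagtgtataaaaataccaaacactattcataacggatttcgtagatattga

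Most clusters were small. Of the 238 clusters, 129 had 4 summits, 66 had 5 and 21 had 6, and the largest, 5 of them, had 11. Clusters of 4 or 5 summits made up 81.9% of all. From first to last summit the clusters spanned a median of 7362 bp (1333 to 32141 bp), and together they covered 1914 kb, or 1.43% of the arms. Neighbouring summits lay a median of 1814 bp apart (quartiles 902.8 and 3122 bp). Of the 924 neighbour pairs, 76 (8.23%) were under 400 bp apart, and in 65 pairs the called peaks overlapped or touched, so some summits are parts of 1 enriched region. The clusters were spread over 5 arms, with 49 on 2L, 40 on 2R, 47 on 3L, 55 on 3R and 47 on X. Chromosome 4 had 0 clusters and 19 reproducible peaks.

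**Figure D1:**
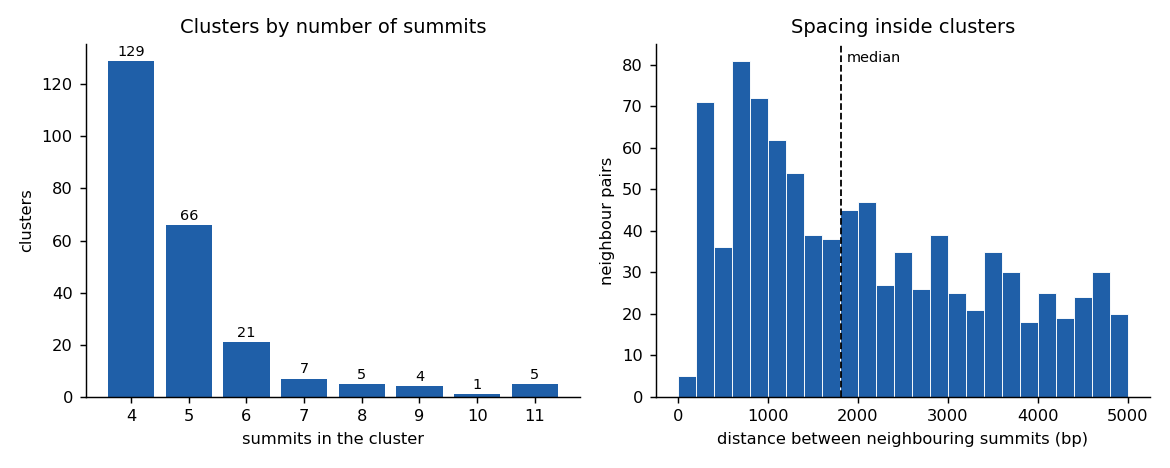
Left, bars give the number of clusters with each number of summits, from 129 clusters of 4 to 5 clusters of 11. Right, bars of 200 bp give the distances between neighbouring summits inside clusters; the dashed line is the median, 1814 bp, and the rule ends the axis at 5000 bp.

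Just inside the rule, a 4-summit cluster at kibra and CG7530 had a widest gap of 4932 bp, one at alc and neighbours on 2R of 4910 bp, and one at puc, the gene of a JNK phosphatase, of 4906 bp. Just outside it, runs of 3 summits at Cow, at dikar and velo and at Dyro missed the next summit at 5034, 5040 and 5047 bp. These clusters and runs were picked for lying closest to the limit, so their nearness to 5000 bp comes from that choice. A slightly different limit would have moved some of them across it.

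Cluster summits were little stronger than the rest. Their median signal was 296.5 (95% interval of the median 282.4 to 310.4, range 164.7 to 6495), against 279.0 for the other summits (272.1 to 284.2, range 164.6 to 8099). Among the 500 strongest peaks of the list were 118 cluster peaks (10.2% of the cluster peaks) and 382 others (8.12% of the others). By run length the median was 270.3 for single summits, 281.8 in runs of 2, 295.8 in runs of 3, 282.8 in clusters of 4, 287.5 in clusters of 5 and 333.7 in clusters of 6 to 11, so it did not rise at every step. Within a cluster the signal was uneven: the strongest summit held a median of 38.3% of the summed signal (17.7 to 79.1%), and in 73 clusters (30.7%) it was at least 2 times the next. The summed signal per cluster had a median of 1799 and ran from 775.9 to 10804.

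The cluster with the greatest summed signal (10804) lay on 2L at ush, the gene of the GATA cofactor U-shaped and a Dpp target, and cbt, the gene of the zinc finger factor Cabut. Its 9 summits spanned 11776 bp. The third summit, in an intron of ush and 1405 bp from the cbt start, had a signal of 6495, the third strongest of the whole list, with 3086 in replicate 2 and 3429 in replicate 3. The second, 394 bp from the cbt start, had 1838, and the other 7 lay between 183.9 and 585.2. The third summit thus held more signal than the other 8 together. A further cluster of 4 summits lay downstream in ush, the last of them 20 bp from another ush start, with signals of 340.5, 578.3, 241.1 and 292.8. Together ush carried 13 cluster summits, 2 of them also within 1000 bp of cbt.

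Second by summed signal (8251) was a cluster of 5 summits on X, from 12751400 to 12755977, that touched no protein-coding gene. Its summits had signals of 3503, 2896, 911.5, 538.8 and 400.9, and they declined from the CG4004 side to the Paics side. The first lay in lncRNA:Vinr, the next 2 in lncRNA:CR44619 and the last 2 between genes. In replicate 2 the same summits had 1653, 1322, 430.4, 257.2 and 217.9, and in replicate 3 they had 1867, 1585, 493.1, 297.1 and 184.1. Both replicates showed the same order of the 5 summits. Of the 238 clusters, 10 had no summit in a protein-coding gene or within 1000 bp of one.

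Raf, the gene of the MAP kinase kinase kinase of the Ras pathway, carried the third greatest sum (7948) in 10 summits over 12837 bp. The strongest, with a signal of 2413, lay 2264 bp inside the gene, and a second intronic one had 1186, while the remaining 8 lay between 258.7 and 809.5. All 10 were in the top lists of both replicates, that is, had a summit within 100 bp among the 5867 strongest peaks of each. At ph-p, the gene of the Polycomb group protein Polyhomeotic-proximal, a peak of 4909 (2424 in replicate 2 and 2513 in replicate 3) held most of the sum of 7828. Its 7 companions, which ran on to D2hgdh, Pgd and bcn92, had 173.5 to 987.1.

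The longest cluster, 32141 bp on 2L, had 11 summits and a sum of 7590. It began at the shared promoter region of CG14352 and Rab3GAP1 (975.5) and at RFeSP, the gene of an iron-sulphur protein of the respiratory chain (229.7). It then ran through lncRNA:CR44603 into intergenic sequence towards chinmo, a BTB zinc finger gene known for its role in the timing of neuronal and stem cell identity. The 2 strongest summits, 1904 and 1654, lay 12462 and 18405 bp from the chinmo start. All 11 summits were in both top lists, and the summed signal was 3856 in replicate 2 and 3793 in replicate 3. Most of its signal thus lay more than 1000 bp from any protein-coding start.

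**Figure D2:**
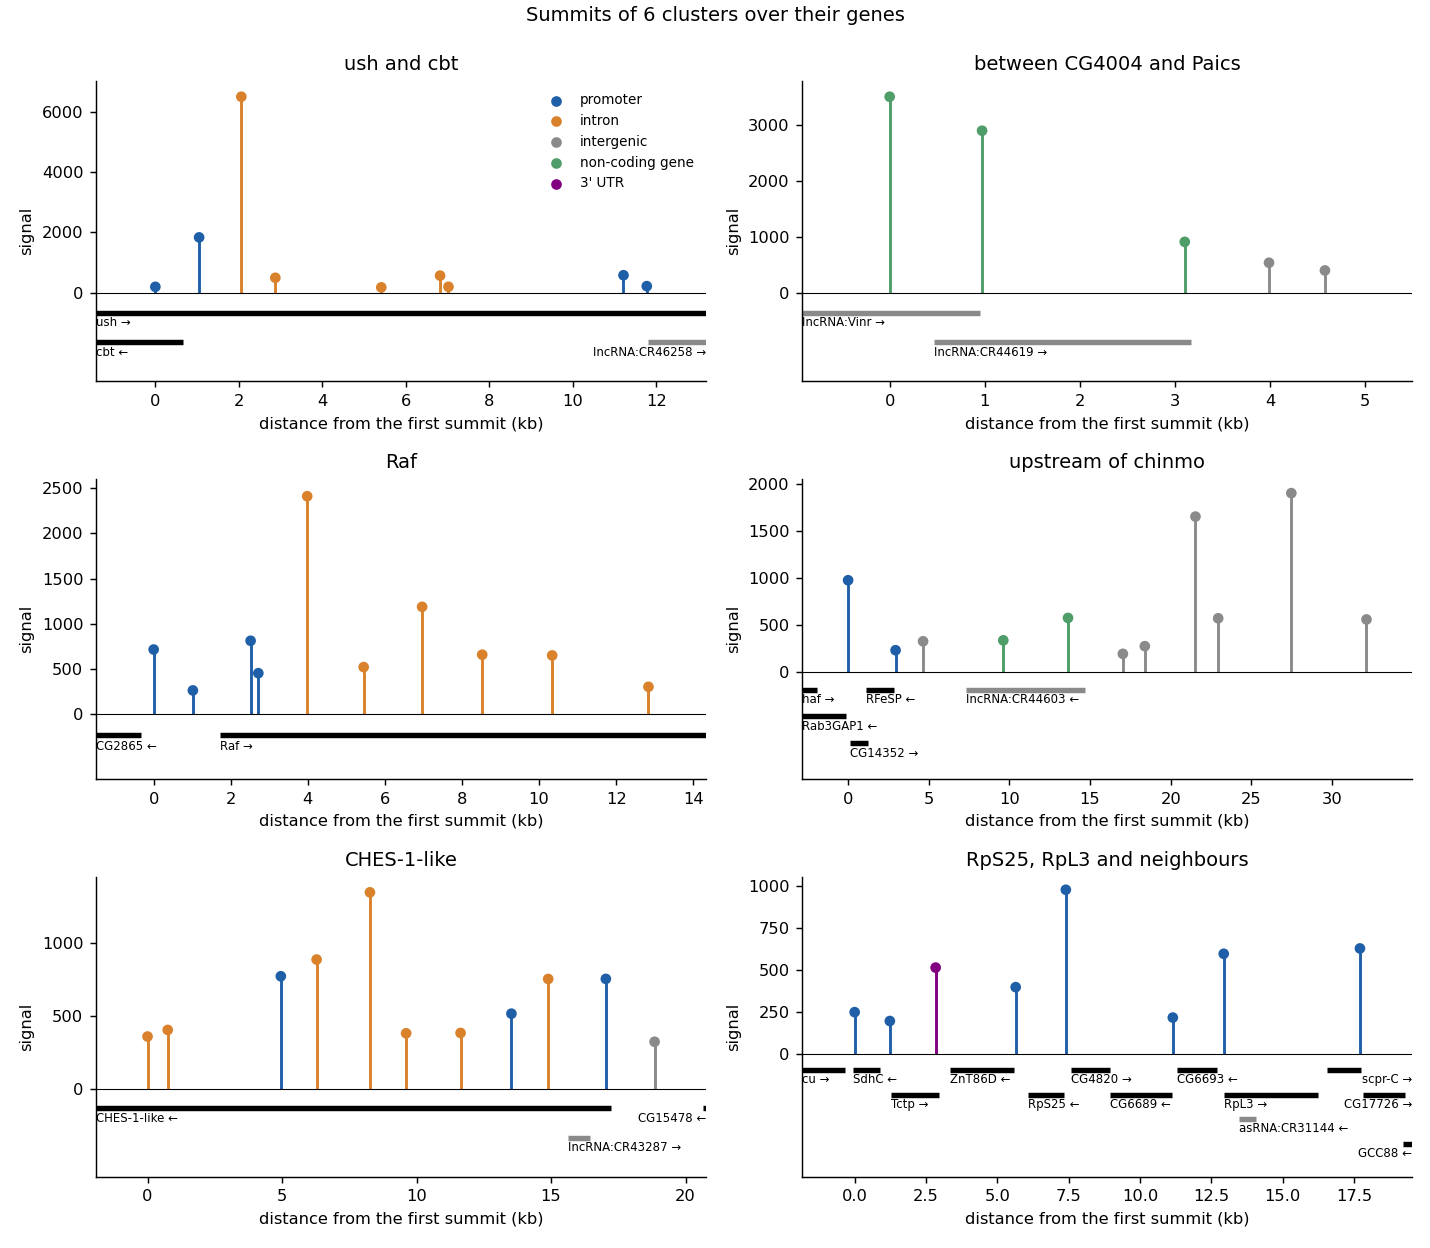
Each panel shows 1 cluster, with the distance from its first summit in kb on the x axis and the signal of each summit on a linear y axis of its own. Colours give the location of the summit, black bars are protein-coding genes and grey bars other genes, arrows give the strand, and snoRNA genes are not drawn. The ush and cbt cluster is led by 1 summit of 6495, while at RpS25, RpL3 and neighbours the summits stand at successive starts.

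Among the other clusters of 11 summits, the one at the forkhead factor gene CHES-1-like on X spanned 18847 bp and had signals from 322.2 to 1352 (sum 6888). All its summits were in both top lists, and 10 lay in the gene or within 1000 bp of it. The cluster at CG14434 and CG43736 on X had signals from 190.1 to 1202 (sum 5248). On 3L, 11 summits of 195.5 to 734.8 lay mostly along lncRNA:CR43334, which spans mir-ban, the gene of the growth-promoting microRNA bantam. The mir-ban hairpin lay 14994 to 15074 bp from the first summit, between summits at 13494 bp (538.6) and 17085 bp (734.8). These 3 clusters had no summit above 1352.

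The gene shn, which encodes the zinc finger partner of Mad and Medea, held 2 clusters and 15 cluster summits on 2R. The larger had 11 summits of 168.1 to 646.5 over 12463 bp, of which 3 were at shn promoters and 8 in introns. Only 3 of its 11 summits were in both top lists. Its first and second summits shared a called peak, and the eighth and ninth lay in overlapping peaks. The smaller held 4 summits. The first 2 (730.8 and 188.8) lay 228 and 27 bp from an alternative shn start inside the gene. Their overlapping peaks had 29.42 in replicate 2 and 648.3 in replicate 3. The other 2 (210.7 and 298.0) were intronic, 4628 and 3909 bp from the nearest shn start. The replicates thus differed widely at the start next to the first 2 summits. At brk itself a cluster of 6 summits covered the 8067 bp upstream of the gene, with signals, from far to near, of 261.2, 208.1, 198.9, 251.2, 494.0 and 717.8. The values were highest next to the start. Only 3 of the 6 summits were in both top lists, and the summit of 208.1 overlapped no relaxed peak of replicate 2. With the rule applied to each top list alone, this cluster overlapped one of replicate 2 but none of replicate 3. The nearest summit, 247 bp away, had 118.0 in replicate 2 and 606.9 in replicate 3, while the next, 908 bp away, had 300.0 and 232.1. All 6 lie inside the annotated gene CG1677, which spans 124.7 kb.

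One cluster ran over a row of neighbouring genes. On 3R, 8 summits over 17700 bp marked SdhC, Tctp, ZnT86D, RpS25, CG6689, RpL3 and CG17726, with 7 of the 8 summits within 1000 bp of a start and the other in the 3′ UTR of Tctp. The highest were at RpS25 (975.2), CG17726 (626.3) and RpL3 (594.5), and RpS25 had 308.3 in replicate 2 and 669.4 in replicate 3. At Act5C, the gene of a cytoplasmic actin, 9 summits led from Usp30 and CG16721 through lncRNA:CR45668 to Act5C, where a pair of summits in 1 peak, 665 and 451 bp from a start, had 1151 and 264.2. The clusters at drongo (9 summits, 175.4 to 900.8) and at wts and cindr (9 summits, 181.9 to 655.5) combined introns with promoters. The gene wts encodes the Warts kinase of the Hippo pathway.

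Over all clusters, 82 (34.5%) had every summit within 1 protein-coding gene or 1000 bp of it. Their 380 summits were intronic in 58.95% and at promoters in 40.8%. In the 156 other clusters, 62.8% of 782 summits were at promoters, 17.1% in introns and 14.8% between genes. All summits were at promoters in 60 clusters (25.2%), and 24 clusters (10.1%) had none there. The promoters of 4 or more genes were touched in 75 clusters (31.5%). The 1-gene rule itself excludes most intergenic summits and favours long genes.

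Cluster summits were more often intronic and less often at promoters than the others in this list. Within 1000 bp of a protein-coding start lay 646 of 1162 cluster summits, 55.6% (Wilson 95% interval 52.7 to 58.4), against 64.0% of the others (62.6 to 65.4) and 62.3% of all reproducible summits. Introns held 30.8% (28.2 to 33.5) of cluster summits and 22.8% (21.6 to 24.0) of the others. Shares between genes were 9.98% and 10.3%. Coding exons held 0 cluster summits, with a Wilson upper bound of 0.33%, and 18 of the others (0.383%). The median distance to a start was 693 bp for cluster summits and 295 bp for the others. Of the intronic cluster summits 69.8% (250 of 358) lay in a first intron, against 62.8% of the other intronic summits. Summits of 1 cluster are neighbours and share genes, so these intervals, which cover counting error only, are too narrow, and no test was made.

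**Figure D3:**
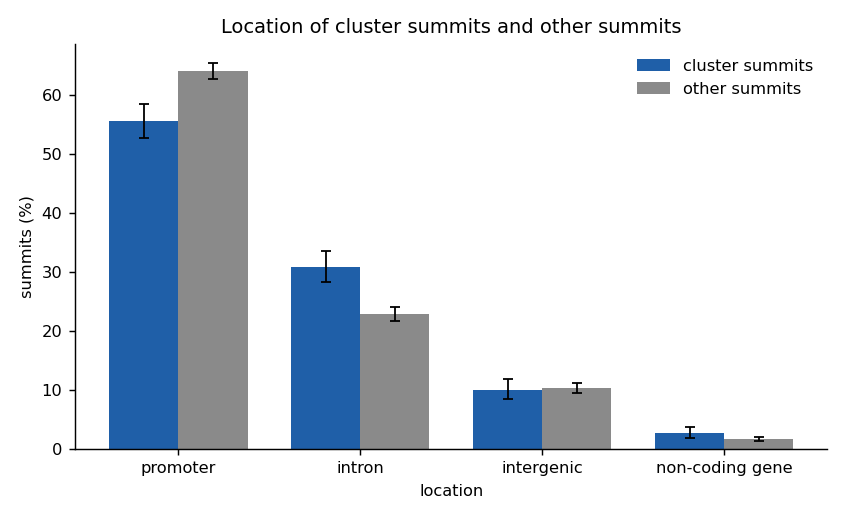
Bars give the percentage of cluster summits (blue, n = 1162) and of other summits (grey, n = 4705) in each location, with Wilson 95% intervals that cover counting error only. Promoters held 55.6% of cluster summits and 64.0% of the others, and introns 30.8% and 22.8%.

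The promoter share did not change evenly with the length of the run. It was 60.5% for single summits, 67.9% in runs of 2, 66.9% in runs of 3, 62.6% in clusters of 4, 51.2% in clusters of 5 and 48.7% in clusters of 6 to 11. The widest step was thus between clusters of 4 and of 5.

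Both replicates carried most cluster summits. Of the 1162, 792 (68.2%, Wilson 95% interval 65.4 to 70.8) were in the top lists of both replicates, against 67.2% of the others and 67.4% of all reproducible summits. A share that close to the background says nothing particular of clusters. The share in the top list of replicate 2 was 79.2% for cluster summits and 81.3% for the others, and in replicate 3 it was 87.3% and 84.4%. When the same rule was applied to the top list of each replicate alone, 149 clusters (62.6%) overlapped a cluster of replicate 2, 188 (79.0%) one of replicate 3, 121 (50.8%) both and 22 neither. In 49 clusters every summit was in both top lists, and in 104 at least 4 summits were.

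For each cluster the signal of the relaxed peaks that it overlapped was summed in each replicate. The log2 of the replicate 3 sum over the replicate 2 sum had a median of 0.45 (SD 0.46 over 238 clusters). As the lists can differ in scale, ratios are read against that median. The highest ratio, 3.87, was at Pdk1, the gene of the kinase that activates Akt. It had 46.1 in replicate 2 and 672.2 in replicate 3, and all 4 of its summits were in the top list of replicate 3 and none in that of replicate 2. Its sum of 775.9 was the lowest of all clusters, and 2 of its 4 summits lay in overlapping peaks. The second highest, 2.83, was at CycG and Med, the tagged gene itself, with 142.2 in replicate 2 and 1009 in replicate 3. Of its 4 summits, 545.2 at the CycG start was the strongest, and the 1 at the Med start (292.2) overlapped no relaxed peak of replicate 2. Adss and Synd followed at 2.01 (194.6 and 781.6). In these 3 clusters replicate 3 carried most of the signal, and at most 1 summit was in the top list of replicate 2.

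These sums count a summit without a relaxed peak as 0 in that replicate. Over the peaks found in both replicates, an alternative chosen after seeing the data, the ratios were 2.68 at Pdk1 (2 of 4 summits), 2.04 at CycG and Med (2 of 4) and 1.66 at Adss and Synd (3 of 4).

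The lowest ratios were at Nup98-96 and mbc (-0.45), at spi, the gene of the EGF-type ligand Spitz (-0.37), and at Faf2 and Grip71 (-0.30). The value at Nup98-96 and mbc rests on 1 intronic summit with 352.4 in replicate 2 that overlapped no relaxed peak of replicate 3. Its 3 other summits gave sums of 682.0 in replicate 2 and 759.9 in replicate 3. This changed the sign, to a ratio of 0.16, which was still below the median of 0.43 over peaks found in both replicates. The spi cluster had 1279 in replicate 2 and 989.9 in replicate 3, with a strongest summit of 1276 at 163 bp from a spi start. In none of these 3 was the lower sum under 0.5 of the higher. The cluster at Nup98-96 and mbc had 2 of its 4 summits in overlapping peaks, and that at spi had 2 of 4 in 1 peak. Seen from the median, the ratios reached further up, to 3.87, than down, to -0.45. A log2 ratio above 1 was found in 27 clusters and one below 0 in 16, limits that are not equally far from the median. Over the peaks found in both replicates these counts were 20 and 17.

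**Figure D4:**
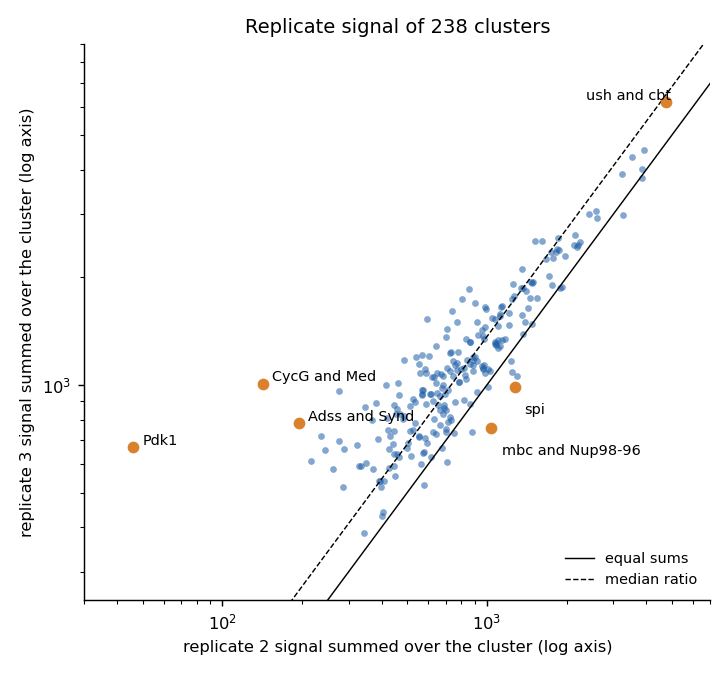
Each point is 1 of the 238 clusters, with the replicate 2 signal summed over the cluster on the x axis and that of replicate 3 on the y axis, both on log axes. The solid line marks equal sums and the dashed line the median ratio; Pdk1 and CycG and Med lie far to the left, at 46.1 and 142.2 in replicate 2.

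Of 13945 protein-coding genes, 703 (5.04%) had a cluster summit in the gene or within 1000 bp, and 115 (0.825%) had 4 or more. The 115 genes had a median length of 20.3 kb against 2.17 kb for all genes. Summits of more than 1 cluster lay in or within 1000 bp of 9 genes: CG1677, CG32264, Hr4, Tlk, crp, sbb, shn, simj and ush. Some of these clusters only reached the gene. A cluster of 5 summits at PIG-K and east had only 1 of them in Hr4, in its 3′ UTR. Of a cluster of 5 at PIG-B and neighbours, 2 were at CG32264. CG1677 had the most summits, 16 in 3 clusters, of which 6 were those upstream of brk and none was at its own start. After shn and ush came sbb with 10. Tlk, the gene of a chromatin-linked kinase, and crp had 9 each, and Hr4, a nuclear receptor gene, had 7.

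Genes of the BMP and activin pathway held a cluster summit in 6 of 31 (19.4%), against 5.04% of all genes and 6.73% of genes of like length. The members with the most cluster summits were shn (15), nej, the gene of the coactivator CBP (4, strongest 625.4), cv-2, the gene of a BMP-binding secreted protein (4, strongest 528.8), and brk (2 within 1000 bp). Of 23 Dpp targets, ush and brk had one (8.70%). Both genes are described above, and most targets were without a cluster.

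EGFR and Ras pathway genes had a cluster summit in 7 of 23 (30.4%), against 7.10% of genes of like length. After Raf came pnt, the gene of the ETS factor that acts at the end of the pathway, with 7 intronic summits from 186.0 to 670.8, of which the first and second lay exactly 5000 bp apart, at the limit of the rule. The ligand gene spi had 4, and S, the gene of Star, which takes Spitz through the secretory route, had 4 with signals of 825.6, 308.8, 970.1 and 321.1. Of the 4 summits at spi, 2 lay in 1 called peak. Raf, pnt, spi and S thus each had a cluster, but most of the 23 listed genes had no cluster summit. In the JAK-STAT pathway 2 of 11 genes had a cluster summit (18.2%, against 6.61% of genes of like length). These were Socs36E, an inhibitor gene, with 7 summits up to 643.6, and Stat92E, the transcription factor gene, with 3 up to 254.8. In the Hippo pathway 3 of 13 genes had one (23.1%, against 7.17%): kibra and wts with 4 each and Mer with 1 (948.7).

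Regulators of adhesion and the cytoskeleton had the highest share of the 21 lists, 7 of 21 (33.3%), against 5.04% of all genes and 7.63% of genes of like length. Their median length was 15.9 kb. They were led by Moe, the gene of moesin, with 6 summits up to 637.3, crb and scrib, polarity genes, with 3 each, and chic, the profilin gene, with 2. Polycomb and Trithorax group genes had one in 4 of 24 (16.7%, against 6.45% of genes of like length): ph-p (5), Trl, the gene of GAGA factor (5, strongest 1911), trx (4, strongest 985.1) and phol (2). Ribosomal protein genes, which are short, had a cluster summit in 9 of 92 (9.78%), against 4.20% of genes of like length, all at a start. These included RpL34b (3, strongest 1312) and RpL8 (3, strongest 524.4). A reproducible summit of any kind was at 17 of 21 adhesion and cytoskeleton regulators and 21 of 24 Polycomb and Trithorax group genes. The same held for 76 of 92 ribosomal protein, 17 of 23 EGFR and Ras pathway and 19 of 31 BMP and activin pathway genes. Among Wingless pathway genes, of which 1 had a cluster summit, it held for 18 of 26. The list shares were not adjusted for this. The share of all protein-coding genes with a reproducible summit of any kind is not given here. Whether these counts, and the like counts below, are high or low therefore cannot be told.

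Most other lists were near or below the background. No cluster summit was found at 12 Hedgehog pathway genes, 8 Hox genes, 30 segmentation genes, 21 muscle structure genes or 119 cuticle protein genes, of which 7, 4, 8, 6 and 4 had a reproducible summit of any kind. The segmentation count left out 2 symbols that the annotation spells otherwise. With renamed symbols matched, chosen after seeing the data, it was 1 of 32 (3.13%), as nanos, the gene of a posterior determinant, carried 2 cluster summits. No other list gained a gene with a cluster summit in this way. The counts were 1 of 26 Wingless pathway genes (drl) and 1 of 28 neural transcription factor genes (sqz). Of 19 ecdysone response genes, 1 had a cluster summit (Hr4). Of 21 dorsal-ventral and mesoderm genes, Mef2 alone had cluster summits, 4 of them, up to 954.3. The last 2 of these lay in overlapping peaks and shared 1 value in each replicate. Notch pathway genes were above the background, with a cluster summit in 2 of 17 (nej and neur, 11.8%), against 7.21% of genes of like length. Further counts were 1 of 15 insulator and architecture factor genes (Trl) and 1 of 19 neuronal differentiation genes (Syx1A). Of 119 odorant and gustatory receptor genes, 2 had one (Or85f and Gr63a). With so few genes per list, 1 or 2 genes move a share widely, neighbouring genes can share a summit, and no list was tested.

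**Figure D5:**
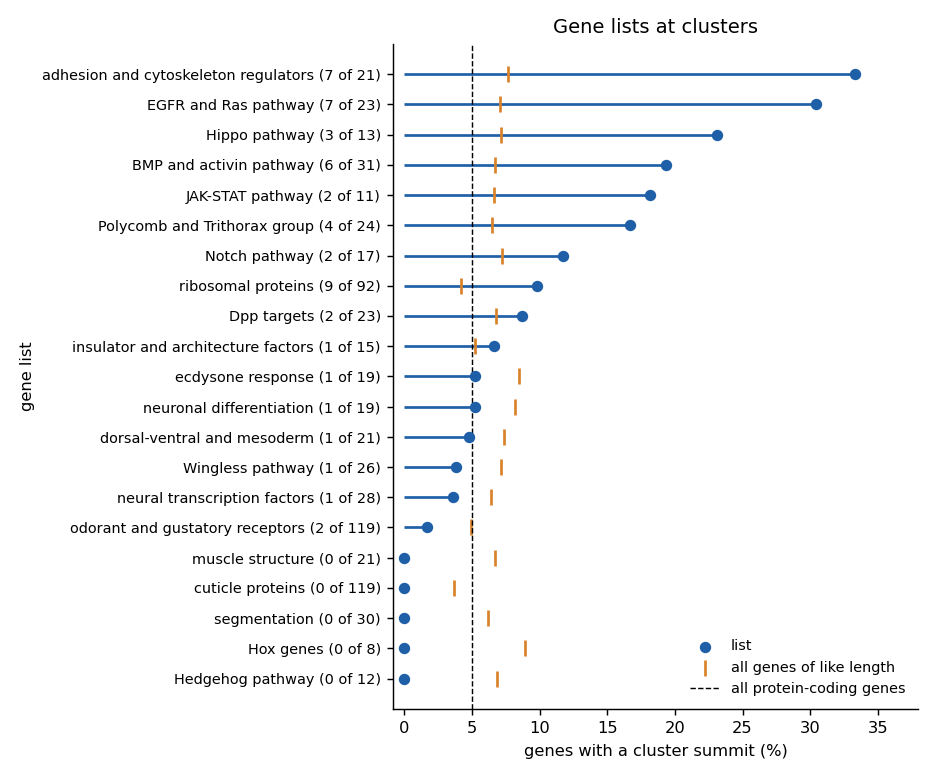
Points give the percentage of genes of each list with a cluster summit in the gene or within 1000 bp, with counts in the labels. Orange marks give the share of all genes of like length and the dashed line that of all protein-coding genes, 5.04%; the highest share is 33.3%, for adhesion and cytoskeleton regulators.

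Motif shares in clusters were mostly close to those elsewhere in the list. A Smad box (GTCT, either strand) was in 30.9% of cluster windows of 50 bp to either side (Wilson 95% interval 28.3 to 33.6) and in 32.3% of the other windows (30.96 to 33.6), and both were below the 35.3% in windows 500 bp away. The DRE (TATCGATA) was in 3.01% of cluster windows, 3.44% of the others and 0.344% of windows 500 bp from cluster summits. Within clusters it was in 5.42% of promoter windows and in 0 of 516 windows away from promoters (Wilson upper bound 0.739%). It was in 3.96% of summits of the clusters with several genes and in 1.05% of those held by 1 gene, which have fewer promoter summits. The M1BP motif (GGTCACAC), another promoter element, had 2.41%, 2.13% and 0.344% in the same 3 sets. The BEAF core (CGATA), which lies within the DRE, had 19.6%, 21.5% and 11.9%. The TATA box (TATAAA) had 16.2%, 14.8% and 10.8%, and the GATA site (AGATAA) 6.45%, 6.40% and 5.47%. The letters GGCGCC were in 1.81% of cluster windows (1.19 to 2.75) and 3.02% of the others (2.57 to 3.55). At promoters they were in 1.39% and 2.86%. The Mad GC site (GCCGNCG) was in 2.84% and 2.47%, and away from promoters in 2.71% (14 of 516 windows) and 1.42%. Windows 500 bp away held it more often, in 4.56% for cluster summits and 4.81% for the others. Median GC content was 37.6% in both sets of summits. A window 500 bp from a cluster summit can hold a neighbouring summit, and a match to these letters is a description, not a binding site.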

How the data were processed

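Per the labels, chromatin of Med-eGFP embryos was sheared to 200 to 800 bp and precipitated with an antibody against GFP. The deposited peak lists give the authors' signal per peak, the deposited −log10 of a q value, which reached a ceiling and was not used to rank, and the deposited summit offset. The deposited manifests name 1 control file for replicate 2 and replicate 3 alike, so any error of it is shared. The sources used here name no aligner, peak caller or threshold for the reproducible list, and library depth is unknown.

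Summits were the peak start plus the offset, counted from 1. Gene models were those of Ensembl for BDGP6, and bases were read from the Release 6 genome, which is dm6. A summit within 1000 bp of a start of a protein-coding transcript was a promoter summit. Any other took the first class that held it among untranslated regions, coding exons, introns, non-coding genes and intergenic sequence. The value of a replicate at a peak is the highest signal among the relaxed peaks that overlap it, so neighbouring summits can share 1 value, and cluster sums count each relaxed peak once. Genes of like length were those in the same of 10 length classes. Of the symbols of 21 gene lists, 19 were not found and were left out. In an alternative added later, 17 of them were matched through RefSeq synonyms, which added 11 genes to the lists.

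No untagged embryos were analysed here. No test was made, since there was 1 group, the rule used the same list, and neighbouring summits and genes are not independent. Wilson 95% intervals cover counting error only. The named clusters were the 12 with the most summits, the 5 with the greatest summed signal and the 3 highest and 3 lowest in replicate ratio, and in each list the 4 genes with the most cluster summits. The members and lists were chosen with earlier results of these data known, and their values were already known when mir-ban, the brk region, the genes with more than 1 cluster, the printed sequences and the loci under other observations were picked. Counting steps were tested on simulated data. Alternatives were other gaps, run lengths, promoter distances and windows, merged summits, the peaks above the median signal, each replicate alone and the dm3 list. Python 3.11.15, pandas 2.3.3, numpy 2.4.6, scipy 1.17.1 and matplotlib 3.10.9 were used.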

Additional observations from a re-analysis of the deposited data

How the results depend on the processing

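The number of cluster peaks, 1162 as reported, was 366 with a gap of 2500 bp, 2541 with 10000 bp, 2035 for runs of 3 or more, 316 for 6 or more and 199 from the peaks above the median signal. It was 1004 to 1298 with 1 replicate alone, which kept 676 and 870 of the reported peaks, 962 with summits within 500 bp merged and 1484 with the dm3 list. In that order of the first 5 settings, the promoter share was 48.1, 61.9, 60.4, 48.7 and 49.8%, and it was 52.6% with merged summits, 44.9 or 67.9% with promoters of 500 or 2000 bp and 59.6% with starts of any gene. Clusters held by 1 gene were 53.2, 17.1, 43.9 and 23.3% in the first 4 settings, so their share falls as longer runs are asked for. The ratio of cluster to other median signal, 1.06 as reported, was 1.15 with 2500 bp, 1.19 for 6 or more, 1.14 among those above the median signal and 1.09 to 1.12 with 1 replicate alone. The Smad box share was 28.1% among those above the median signal and 53.1% in a window of 100 bp to either side. Summits in both replicates were 72.1% with a match within 200 bp and 91.1% with the whole relaxed lists. The cause of these shifts was not tested, and wider windows and looser matches find more by construction. In alternatives chosen after seeing the data, the segmentation list had 1 gene with a cluster summit, against 0, once renamed symbols were matched. The log2 replicate ratio of Nup98-96 and mbc turned to 0.16 over peaks found in both replicates, where the median over clusters was 0.43. No paired analysis was possible because there was 1 group. Depth limits what can be said of absent summits, as it is unknown.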

Other observations

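A pair of clusters outside the naming rule, chosen after their values were seen, also had 1 summit far above its neighbours. At larp, the gene of an RNA-binding protein of the La family, a promoter summit reached 3423, with replicate values of 1507 (replicate 2) and 1909 (replicate 3). The 6 other summits of its cluster had 202.0 to 455.1. At Tlk an intronic summit had 2821, and the 4 other summits of that cluster had 168.3 to 809.5.

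Further clusters, also chosen after their values were seen, had no summit above 799.1. At Diap1, the gene of an inhibitor of apoptosis, 5 of 6 summits were within 1000 bp of a start, and all 6 had 175.2 to 646.5. The first and second of them shared a called peak. At Moe 7 summits had 240.6 to 637.3. The 5 intronic summits of tara had 196.5 to 587.3. The 5 summits of the CrebB cluster had 311.6, 727.4, 189.8, 611.7 and 286.7. At crp, a bHLH gene, 1 cluster of 5 intronic summits (174.1 to 497.8) was followed by another of 4 (203.2 to 799.1) that ended at the crp start.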
